A study of Homo sapiens with 12 samples.

Results

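The genes described here encode the initiation and elongation factors of translation, the proteins that load messenger RNA and initiator tRNA onto the ribosome and then carry the ribosome along the coding sequence. They were taken by symbol: every gene whose symbol begins with EIF or EEF, without the EIF2AK kinases, EIF4E, EIF4EBP1, EIF4EBP2 and antisense RNAs. This left 56 of the 4918 genes analysed here, whose symbols run from A1BG to FAM46B, in 6 factor groups: 10 EEF genes, 5 EIF1 and EIF6 genes, 10 EIF2 genes, 14 EIF3 genes, 12 EIF4 genes and 5 EIF5 genes. RNA was sequenced from A375 cells, an established human malignant melanoma line, in 12 samples of 4 groups with 3 samples each. The groups were untreated control cells, cells given SB-3CT, an inhibitor of the gelatinases MMP2 and MMP9, cells given the cytokine interferon gamma (IFNγ), and cells given SB-3CT with IFNγ, all collected after 24 h. The labels give no dose and do not say that the samples of a group were separate cultures, so p-values measure the spread between these samples, which may be technical.

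Translation begins when eIF2 brings the initiator tRNA to the small ribosomal subunit, held there with eIF1, eIF1A, eIF5 and the many-subunit scaffold eIF3. The eIF4 proteins find the cap of the messenger RNA, unwind its leader and join it to eIF3, eIF5B lets the large subunit join, and eEF1 and eEF2 then deliver aminoacyl tRNA and move the ribosome on by a codon. eIF2B recharges eIF2 with GTP and is the step at which stress signalling slows initiation. Many messengers of the translation machinery begin with a C followed by a run of pyrimidines, the 5′ terminal oligopyrimidine, through which growth signalling sets their own translation.

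Values are FPKM (fragments per kilobase, relative to the fragments sequenced), deposited as log2(FPKM + 1), and the log2 changes and adjusted p-values below come from limma on that scale, adjusted over all 4918 genes. Summed FPKM ranged from 121927.8 to 129691.8 per sample, and relative depth, read from the steps between the lowest values, from 87.1% to 150.2% of the control mean. Total read numbers are not given in the sources used here. The 7 melanocyte and melanoma markers summed to 737 to 860.3 FPKM per sample, most of it from CD63 at 595.6 to 727.9. The pigment gene DCT stayed at 0.026 to 0.384 and CITED1 at 0.386 to 1.59. Markers of T, B, myeloid, endothelial and epithelial cells summed to at most 0.660 FPKM in any sample and list. The IFNγ-inducible genes CXCL10, CIITA and CD274 summed to 13.1 to 15.3 FPKM in the 6 samples without IFNγ and to 174.6 to 199.8 in the 6 with it.

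All 56 translation factor genes were above 0 in all 12 samples, and 53 had a control mean of at least 1 FPKM. Their median control level was 62.4 FPKM against 3.53 for all genes in the table. EEF1A1, which carries aminoacyl tRNA to the ribosome, was the most abundant of the 4918 genes at 2179 ± 32.0 FPKM (SD, n = 3). EEF1G, a subunit of its exchange factor, followed at 1588 ± 31.4, then the helicase EIF4A1 at 1243 ± 16.6 and the hypusine-bearing factor EIF5A at 1227 ± 32.7. EIF5A and EIF4A1 differed by less than their SD, whereas EEF1A1 and EEF1G did not overlap. The plot of levels by gene shows the same order within each factor group.

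**Figure D1:**
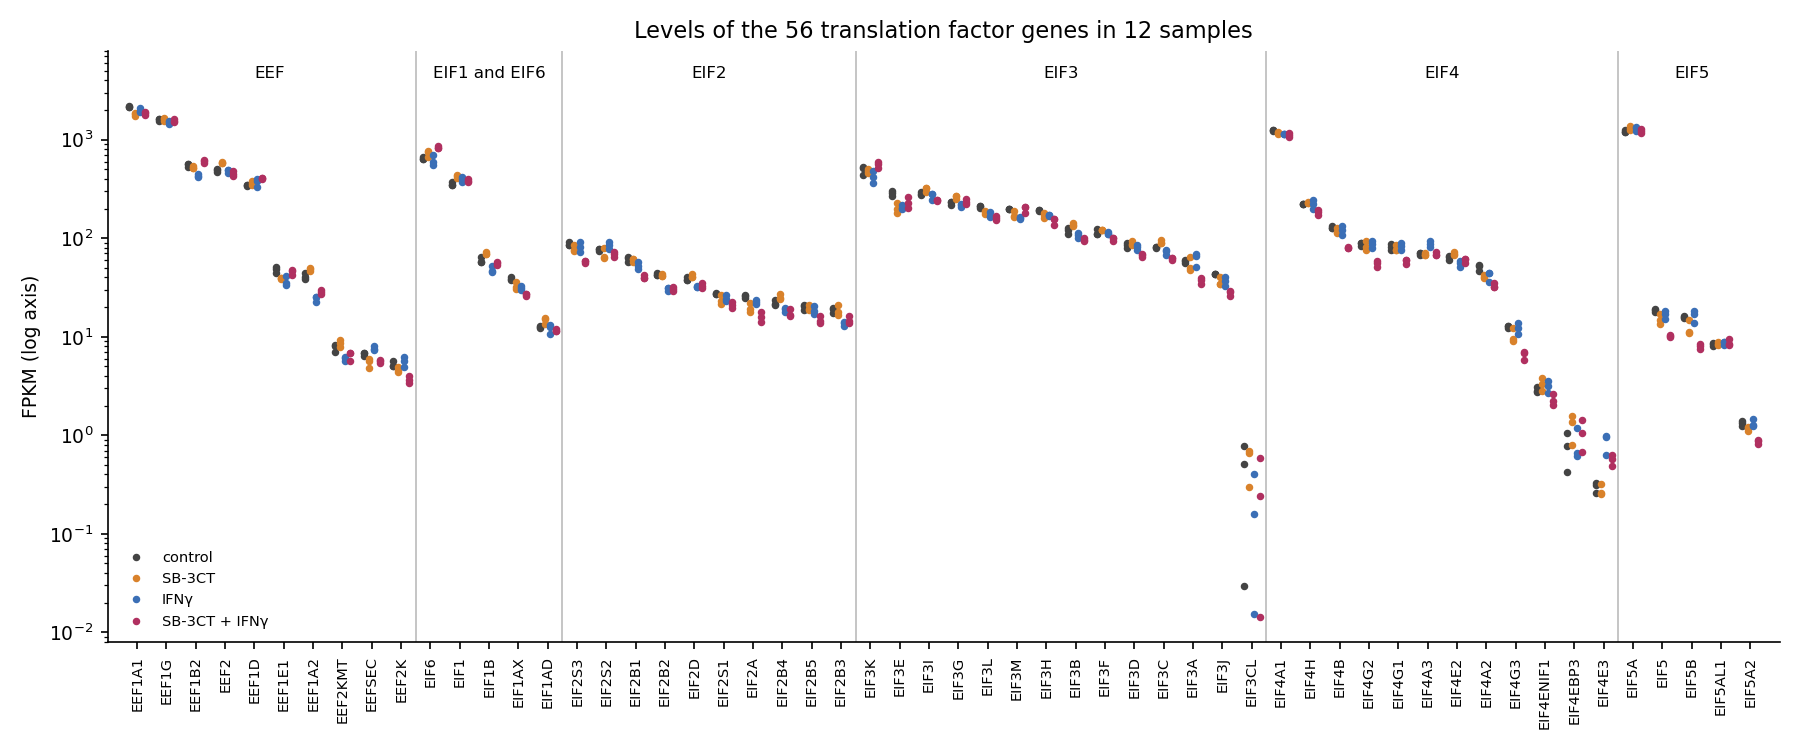
FPKM (log axis) of the 56 genes in the 12 samples, grouped by factor and ordered by control mean, with 1 point per sample and a colour per treatment group. EEF1A1 stands highest, with a mean of 2179 FPKM in control cells, where EIF3CL, EIF4EBP3 and EIF4E3 have means below 1.

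Genes whose products form a single complex spanned wide ranges per length. Among the 14 EIF3 genes the control mean ran from 0.442 FPKM for EIF3CL, a near copy of EIF3C whose reads cannot be securely divided from it, through 43.3 for EIF3J and 58.5 for EIF3A to 493 for EIF3K. The 3 subunits of eIF2 measured 27.3 FPKM for EIF2S1, 76.6 for EIF2S2 and 87.3 for EIF2S3. The 5 eIF2B subunits lay between 18.7 FPKM for EIF2B3 and 61.2 for EIF2B1, and the EIF2 genes as a group had the lowest maximum, 87.3, of the 6 groups. One paralog exceeded its partner in several pairs: EEF1A2 was at 41.55 FPKM, EIF4A2 at 50.6, EIF5A2 at 1.32 and EIF1B at 59.6, below EEF1A1, EIF4A1, EIF5A and EIF1.

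The first transcribed bases were examined because the 5′ pyrimidine run is the best known shared feature of these messengers. Promoter entries were found for 46 of the 56 genes in RefSeq (GRCh38.p14). A C followed by at least 5 bases each C or T, searched on the transcribed strand only, began exactly at an annotated start in 11 of the 46, or 23.9%, and in 3.83% of all 27305 genes with an entry. That placement was chosen after seeing the sequences; anywhere within 20 bases of the start the run was found in 56.5% of members and 36.1% of all genes. The palindromic letters CACGTG, the same on both strands, were found within the 300 bases around the start in 26.1% of members and 8.77% of all genes. The lines below show 10 bases before the start and 20 from it, 5′ to 3′, for 6 genes with the run, whose letters are in capitals, and for 2 without it, EIF5B and EIF2S1.
EEF1A1 (chr6:73521013-73521042, minus strand): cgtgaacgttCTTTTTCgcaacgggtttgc
EEF2 (chr19:3985444-3985473, minus strand): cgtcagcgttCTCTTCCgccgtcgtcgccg
EEF1B2 (chr2:206159885-206159914, plus strand): ctcttcgggtCCTTTTTCCTCTCTTCagcg
EIF3K (chr19:38619178-38619207, plus strand): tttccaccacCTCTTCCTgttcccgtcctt
EIF3M (chr11:32583821-32583850, plus strand): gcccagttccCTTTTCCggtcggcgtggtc
EIF2S3 (chrX:24054946-24054975, plus strand): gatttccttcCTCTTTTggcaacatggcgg
EIF5B (chr2:99337379-99337408, plus strand): ctgagaactcacaccatatgtgtcctgttc
EIF2S1 (chr14:67360318-67360347, plus strand): gaggttccgcatgcgcggtggagtgagcga
The run is longest in EEF1B2, at 16 bases, and EIF2A, EIF2D, EIF3D, EIF3F and EIF4A2 also carry it from the start base. EEF1B2 and 9 further genes have several entries, of which 1 with the run was enough.

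The annotation (GENCODE on GRCh37) places a protein-coding gene on the opposite strand across part of 23 members, EIF5B, EIF3A, EIF4G2 and EIF2A among them, and on the same strand for 8, such as the read-through gene of EIF4EBP3. The strand setting of the counting is not given in the sources used here, so reads of such partners cannot be told apart, nor can those of EIF5A and its near copy EIF5AL1.

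The first comparison asks what SB-3CT alone did in cells without IFNγ. SB-3CT raised 4 translation factor genes and lowered 6 of 56, beside 5.37% of all genes higher and 6.87% lower. The risers were EEF2, EIF1, EIF1B and EIF3C, and the fallers EIF3E, EIF2A, EIF4A2, EEF1E1, EEF1A1 and EIF3L. Of these 10 genes 0 changed by as much as 1.5-fold. The largest ratio of mean FPKM, 1.64 for the translational repressor gene EIF4EBP3 (0.754 FPKM in control cells and 1.24 with SB-3CT), was not called. With each sample divided by its median ratio to the mean of all samples (median-ratio scaling), 8 members were higher and 6 lower, beside 7.36% and 6.47% of all genes, and EEF1A1 and EIF3L were not among those lower.

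The elongation factors moved in different directions. EEF2, the translocase, measured 499, 467 and 488 FPKM in control cells and 577, 583 and 597 with SB-3CT, so that every treated sample was above every control. The log2 change was 0.27 ± 0.05 (SE; adjusted p = 0.0181). EEF1A1 measured 2215, 2153 and 2170 FPKM in control cells and 1885, 1814 and 1728 with SB-3CT, again without overlap but downward, and fell by 0.27 on the log2 scale (adjusted p = 0.035; 0.138 with median-ratio scaling). EEF1E1, a scaffold protein of the tRNA synthetase complex, fell by 0.30 (adjusted p = 0.0214), and EEF1B2 (-0.08), EEF1G (0.02) and EEF2K (-0.16), the kinase that inhibits eEF2, did not pass the test.

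Among the initiation factors the largest fall was that of EIF3E, an eIF3 subunit, which measured 301, 287 and 270.3 FPKM in control cells and 227, 181.5 and 198.5 with SB-3CT. It fell by 0.50 ± 0.09 on the log2 scale (adjusted p = 0.0168). EIF2A, an alternative binder of initiator tRNA and not a subunit of eIF2, went from 26.3, 26.1 and 24.8 FPKM to 21.8, 18.95 and 17.9 and fell by 0.38 (adjusted p = 0.0238). EIF4A2, the minor helicase paralog, fell by 0.31 (adjusted p = 0.0233) while EIF4A1 was at -0.09 (adjusted p = 0.296). EIF1 and EIF1B, which guard start codon choice, rose by 0.25 and 0.22 (adjusted p = 0.0288 and 0.0396), and EIF3C rose by 0.18 (adjusted p = 0.0411). Of the 5 eIF2B genes and the 5 EIF5 genes 0 passed limma's test (at an unadjusted p under 0.05, 1 eIF2B gene was higher and 2 EIF5 genes lower), and the 3 eIF2 subunits lay between -0.21 and -0.15. EIF4G1 was at -0.02, EIF4G2 at -0.06, EIF3A and EIF4B at -0.11 and EIF5B at -0.35 (adjusted p = 0.0744), none passing. EIF5 (-0.29, adjusted p = 0.0525) and EIF3B (0.21, adjusted p = 0.0635) did not pass on the deposited scale but did with median-ratio scaling (adjusted p = 0.0457 and 0.0298). EIF6 (0.17), EIF5A (0.11), EIF2B1 (-0.03) and EIF2B5 (-0.04) passed on neither of these scales.

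The counts varied with the samples in the fit. Without SB-3CT replicate 1, 5 members were higher and 18 lower, whereas leaving out any of the other 5 samples left 0 higher and either 0 or 1 lower. None of the 10 calls held in all 6 of these fits. The share of all genes called was not counted in fits that leave out a sample, here or in the later comparisons. Such counts therefore do not set the members apart from other genes.

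The second comparison asks what IFNγ alone did. Of the 56 genes, 15 were lower and 2 higher than in control cells, beside 11% and 8.46% of all genes, and the falls lay in the EEF, EIF1 and EIF6, EIF2 and EIF3 groups. In the EIF2 group 5 of 10 genes fell, 3 of them eIF2B subunits, in the EEF group 4 of 10, in the EIF3 group 4 of 14 and in the EIF1 and EIF6 group 2 of 5. In limma's test the EIF4 group had 2 rises and 0 falls (2 and 3 at an unadjusted p under 0.05), and the EIF5 group 0 in either direction, also at an unadjusted p under 0.05. With median-ratio scaling 12 were lower and 4 higher, beside 10.2% and 12.1% of all genes.

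EEF1A2, the tissue-restricted paralog of EEF1A1, fell most. It measured 40.9, 39.0 and 44.8 FPKM in control cells and 25.2, 22.4 and 25.4 with IFNγ, and fell by 0.75 ± 0.07 on the log2 scale (adjusted p = 0.00136). EEF1A1 itself went from a mean of 2179 to 1985 FPKM and was at -0.14 (adjusted p = 0.216). Quantile normalization, which sets each value by rank within its sample, gave -0.68 (adjusted p = 0.000928). EEF1A1 had the highest control mean, but the highest log2 value of any gene was 12.16 and that of EEF1A1 11.11. The reason for the larger value with quantile normalization was not tested. EEF1B2, the nucleotide exchange subunit for eEF1A, went from 571, 572 and 525.5 FPKM to 423, 446 and 429.5 and fell by 0.36 (adjusted p = 0.00686). EEF1E1 fell by 0.39 and EEF2KMT, which methylates eEF2, by 0.31 (adjusted p = 0.0295 and 0.0416), though neither passed with median-ratio scaling. EEF2 did not pass, with a mean of 485 FPKM in both groups, nor did EEF1G (-0.08) and EEF2K (0.07).

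Of the eIF2B subunits 3 of 5 fell, beside 11% of all genes. EIF2B2 measured 42.25, 42.3 and 43.9 FPKM in control cells and 31.35, 31.0 and 29.45 with IFNγ, and fell by 0.47 ± 0.04 (adjusted p = 0.000874). EIF2B3, which pairs with the catalytic EIF2B5, fell by 0.43 (adjusted p = 0.00751) and EIF2B4 by 0.22 (adjusted p = 0.0479). EIF2B1 and EIF2B5 were at -0.23 and -0.11 (adjusted p = 0.0786 and 0.41). The subunits of eIF2 itself, at -0.15 for EIF2S1, 0.14 for EIF2S2 and -0.11 for EIF2S3, did not pass. With median-ratio scaling EIF2B1 was lower (-0.18, adjusted p = 0.039) and EIF2S2 higher (0.19, adjusted p = 0.0193), while EIF2B4 did not pass (-0.17, adjusted p = 0.134).

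EIF3E and EIF3M fell among the eIF3 genes, EIF3E from a control mean of 286 to 207 FPKM (-0.46 ± 0.06, adjusted p = 0.00455) and EIF3M from 198, 199.7 and 197 FPKM to 163, 158.5 and 160.0 (-0.30 ± 0.04, adjusted p = 0.00248). EIF3L and EIF3H, also subunits, fell by 0.27 and 0.16, though neither passed with median-ratio scaling (adjusted p = 0.0986 and 0.219). The 2 rises were EIF4A3, the helicase of the exon junction complex, from 71.3, 67.3 and 70.4 FPKM to 93.6, 81.8 and 87.7 (0.33 ± 0.06, adjusted p = 0.0122), and EIF4E3, a cap-binding homolog. EIF4E3 was near the lowest level measured, 0.262, 0.311 and 0.330 FPKM in control cells against 0.987, 0.635 and 0.964 with IFNγ, and its log2 change of 0.51 (adjusted p = 0.00854) understates the 2.87-fold ratio of mean FPKM because 1 was added to each value. The scaffold genes EIF4G1 (0.03) and EIF4G2 (-0.01) and the joining factor EIF5B (0.05) did not pass, nor did EIF3A (0.07), EIF3B (-0.16), EIF4A1 (-0.13), EIF4A2 (-0.29), EIF4B (-0.09), EIF5 (-0.14), EIF5A (0.08), EIF6 (-0.07) and EIF1 (0.15), of which EIF1 was higher with median-ratio scaling (0.20, adjusted p = 0.0334).

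Of the 10 named calls, 7 held in all 6 fits that leave out a sample: EEF1A2, EEF1B2, EIF2B2, EIF2B3, EIF3E, EIF3M and EIF4E3. The count of lower members was 8 without control replicate 1, 9 without control replicate 2, 9 without control replicate 3 and 7 without IFNγ replicate 3, and 1 member was higher without control replicate 2 or IFNγ replicate 3. The myeloid markers CD14 and CSF1R summed to 0.0523 to 0.136 FPKM in control cells and 0.329 to 0.660 with IFNγ, and the muscle marker DES was at 0 and 0.466 to 0.610; their part in these results was not tested.

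**Figure D2:**
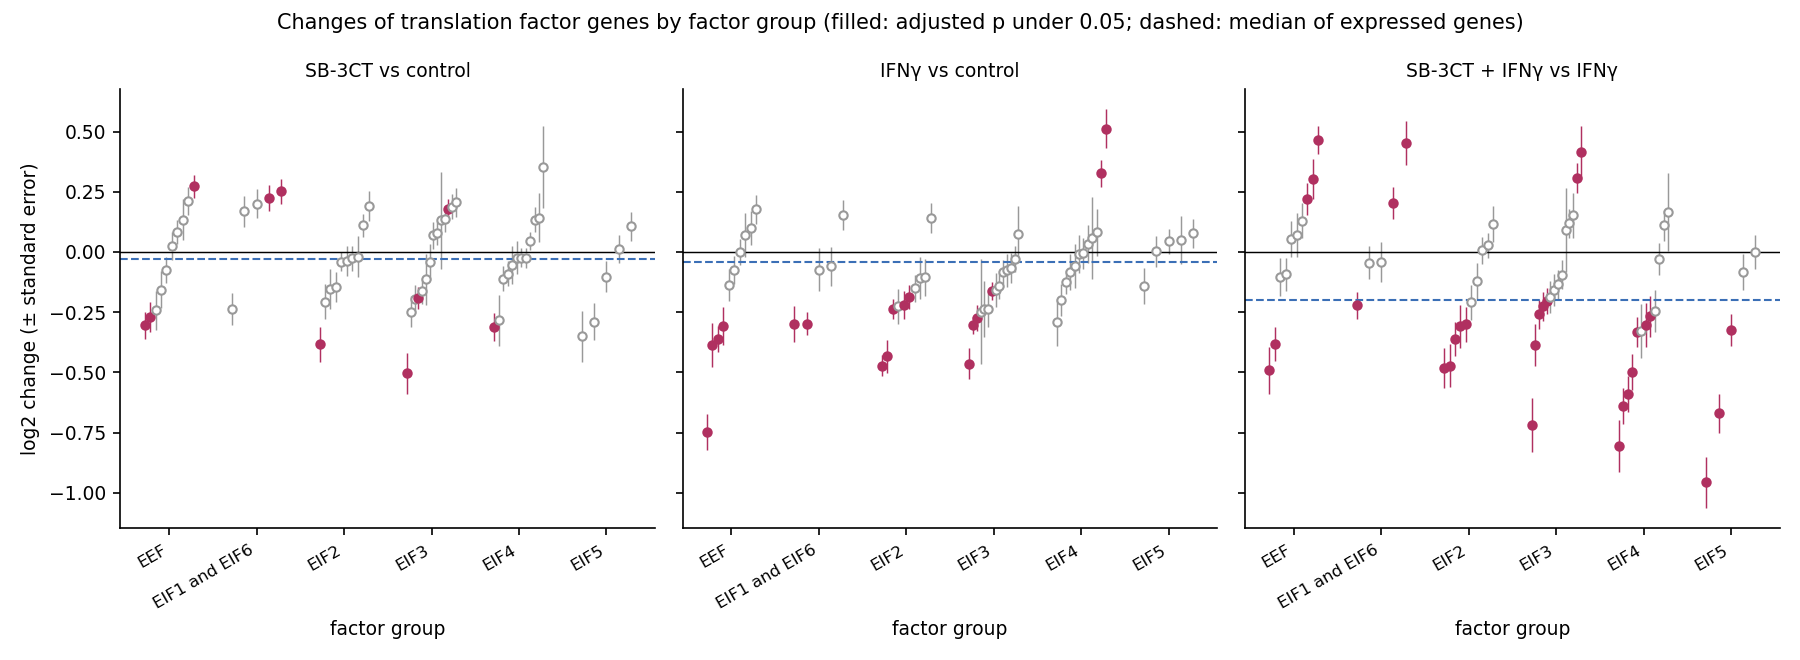
Log2 changes (y axis, ± standard error) of the 56 genes by factor group in 3 comparisons; filled points have an adjusted p under 0.05, and the dashed line is the median of genes averaging 1 FPKM or more. With SB-3CT and IFNγ against IFNγ that median is -0.20, the EIF3, EIF4 and EIF5 groups reach below -0.50, and EEF1B2, at 0.47, is the highest point.

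The third comparison asks what SB-3CT did in cells that also had IFNγ, in which calls went both ways. On the deposited scale 23 genes were lower and 7 higher than with IFNγ alone, beside 31.5% and 6.41% of all genes. The EIF2, EIF4 and EIF5 groups had falls and 0 rises on this scale (limma, 0 higher also at an unadjusted p under 0.05), while the EEF group had 3 rises and 2 falls, the EIF1 and EIF6 group 2 and 1 and the EIF3 group 2 and 5; these groups were not tested against each other. For genes averaging 1 FPKM or more the median change was -0.20 on this scale and 0.02 with median-ratio scaling, against -0.15 and 0.11 for the 56 genes. With median-ratio scaling 9 were lower and 18 higher, beside 15.5% and 16.5%. The direction of the set as a whole therefore depends on the scaling, and both values are given for the genes named below that were called on the deposited scale. FPKM is relative to the fragments sequenced, so these values show neither cell number nor total RNA per cell.

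The largest fall was that of EIF5B. EIF5B, the GTPase of subunit joining, measured 18.5, 13.9 and 17.2 FPKM with IFNγ but 7.47, 8.45 and 8.01 when SB-3CT was added, so that each sample with both agents was below each with IFNγ alone. It fell by 0.96 ± 0.11 on the log2 scale (adjusted p = 0.00207; -0.73 with median-ratio scaling), a fall of 51.7% in mean FPKM. EIF5, which activates the GTPase of eIF2, went from 18.4, 15 and 17.0 FPKM to 9.905, 10.3 and 10.25 and fell by 0.67 ± 0.08 (adjusted p = 0.00211; -0.43). EIF3A, the largest eIF3 subunit, went from 69.35, 51.2 and 65.8 FPKM to 34.5, 39.2 and 37.5 and fell by 0.72 ± 0.11 (adjusted p = 0.0035; -0.47).

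The 3 EIF4G genes fell on both scales. EIF4G3 measured 13.75, 10.6 and 12.3 FPKM with IFNγ and 5.84, 6.885 and 6.93 with both agents, and fell by 0.81 ± 0.11 (adjusted p = 0.00244; -0.58 with median-ratio scaling). EIF4G2, which lacks the site for the cap-binding protein, went from 93.9, 79.75 and 87.4 FPKM to 51.6, 59.0 and 55.8 and fell by 0.64 (adjusted p = 0.00211; -0.39). EIF4G1, the main scaffold of the cap complex, went from 89.3, 75.4 and 84.1 FPKM to 60.15, 60.5 and 54.4 and fell by 0.50 (adjusted p = 0.0032; -0.25). EIF4B, which stimulates the helicase, went from 133, 109 and 121 FPKM to 79.1, 81.2 and 79.1 and fell by 0.59 (adjusted p = 0.00234; -0.34). The helicase genes differed: EIF4A1, at -0.03 (adjusted p = 0.774), did not pass, whereas EIF4A2 and EIF4A3 fell by 0.30 and 0.33 on the deposited scale (adjusted p = 0.0326 and 0.00593) but were at -0.06 and -0.08 with median-ratio scaling, neither passing. In limma's test 7 of 12 EIF4 genes were lower and 0 higher (9 and 0 at an unadjusted p under 0.05), or 4 lower and 1 higher with median-ratio scaling. Of all genes 31.5% were lower and 6.41% higher, or 15.5% and 16.5% with median-ratio scaling.

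In the EIF2 group 5 of 10 genes fell and 0 rose on the deposited scale, against 1 lower and 3 higher with median-ratio scaling. The shares of all genes lower and higher were 31.5% and 6.41%, or 15.5% and 16.5% with median-ratio scaling. EIF2S3, the GTP-binding subunit, went from 91.1, 72.1 and 80.7 FPKM to 56.2, 58.4 and 58.3 and fell by 0.48 ± 0.08 (adjusted p = 0.00467; -0.23 with median-ratio scaling, adjusted p = 0.0245). EIF2S2 fell by 0.30 (adjusted p = 0.0168; -0.05 with median-ratio scaling), EIF2A by 0.47 (-0.23), EIF2B1 by 0.36 (-0.11) and EIF2B5 by 0.31 (-0.07) on the deposited scale, and none of these 4 passed with median-ratio scaling. EIF2S1 was at -0.21 (adjusted p = 0.0564; 0.04). EIF2B2 and EIF2B3, lower with IFNγ, were at 0.01 and 0.12 on the deposited scale without passing and rose by 0.26 and 0.36 with median-ratio scaling (adjusted p = 0.0178 and 0.0104), as did EIF2D, a factor that can deliver tRNA without eIF2, by 0.28 (adjusted p = 0.00876; 0.03 on the deposited scale, not passing). EEF2K, the eEF2 kinase, fell by 0.49 (adjusted p = 0.00759; -0.28), and the selenocysteine factor EEFSEC by 0.38 (adjusted p = 0.00554; -0.16), the latter not passing with median-ratio scaling.

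The 7 genes that rose passed on both scales and included elongation and eIF3 genes. EEF1B2 measured 423, 446 and 429.5 FPKM with IFNγ and 603, 618 and 574 with both agents, and its change was 0.47 ± 0.06 (adjusted p = 0.00234; 0.72 with median-ratio scaling). EIF6, which keeps the large subunit from joining too early, went from 556, 694 and 589 FPKM to 857, 822 and 829.6 (0.45 ± 0.09, adjusted p = 0.00757; 0.71). EIF3K, from 364, 481 and 414 FPKM to 514, 562 and 595, and EIF3M, from 163, 158.5 and 160.0 FPKM to 182, 209 and 205, had changes of 0.41 and 0.31 (adjusted p = 0.0213 and 0.00873; 0.67 and 0.56). EEF1E1, EEF1A2 and EIF1B rose by 0.30, 0.22 and 0.20 (adjusted p = 0.0263, 0.0341 and 0.0458; 0.55, 0.47 and 0.46). With quantile normalization EEF1B2 (0.12, adjusted p = 0.243), EIF6 (0.17, adjusted p = 0.185), EIF3K (0.07, adjusted p = 0.682) and EIF3M (0.19, adjusted p = 0.105) did not pass. Of the most abundant factors EEF1A1 (-0.10), EEF1G (0.05), EEF2 (-0.09), EIF1 (-0.04) and EIF5A (-0.08) did not pass on the deposited scale, nor did EIF3B (-0.13).

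All 13 named calls that held without any 1 sample in turn are EIF5B, EIF4G3, EIF3A, EIF5, EIF4G2, EIF4B, EIF4G1, EEF2K, EIF2S3, EIF2B1, EEF1B2, EIF3M and EIF6. The count of higher members was 4 without IFNγ replicate 1 and 3 without IFNγ replicate 3 or without replicate 2 or 3 of SB-3CT with IFNγ, and the count of lower members was 14 without IFNγ replicate 3.

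**Figure D3:**
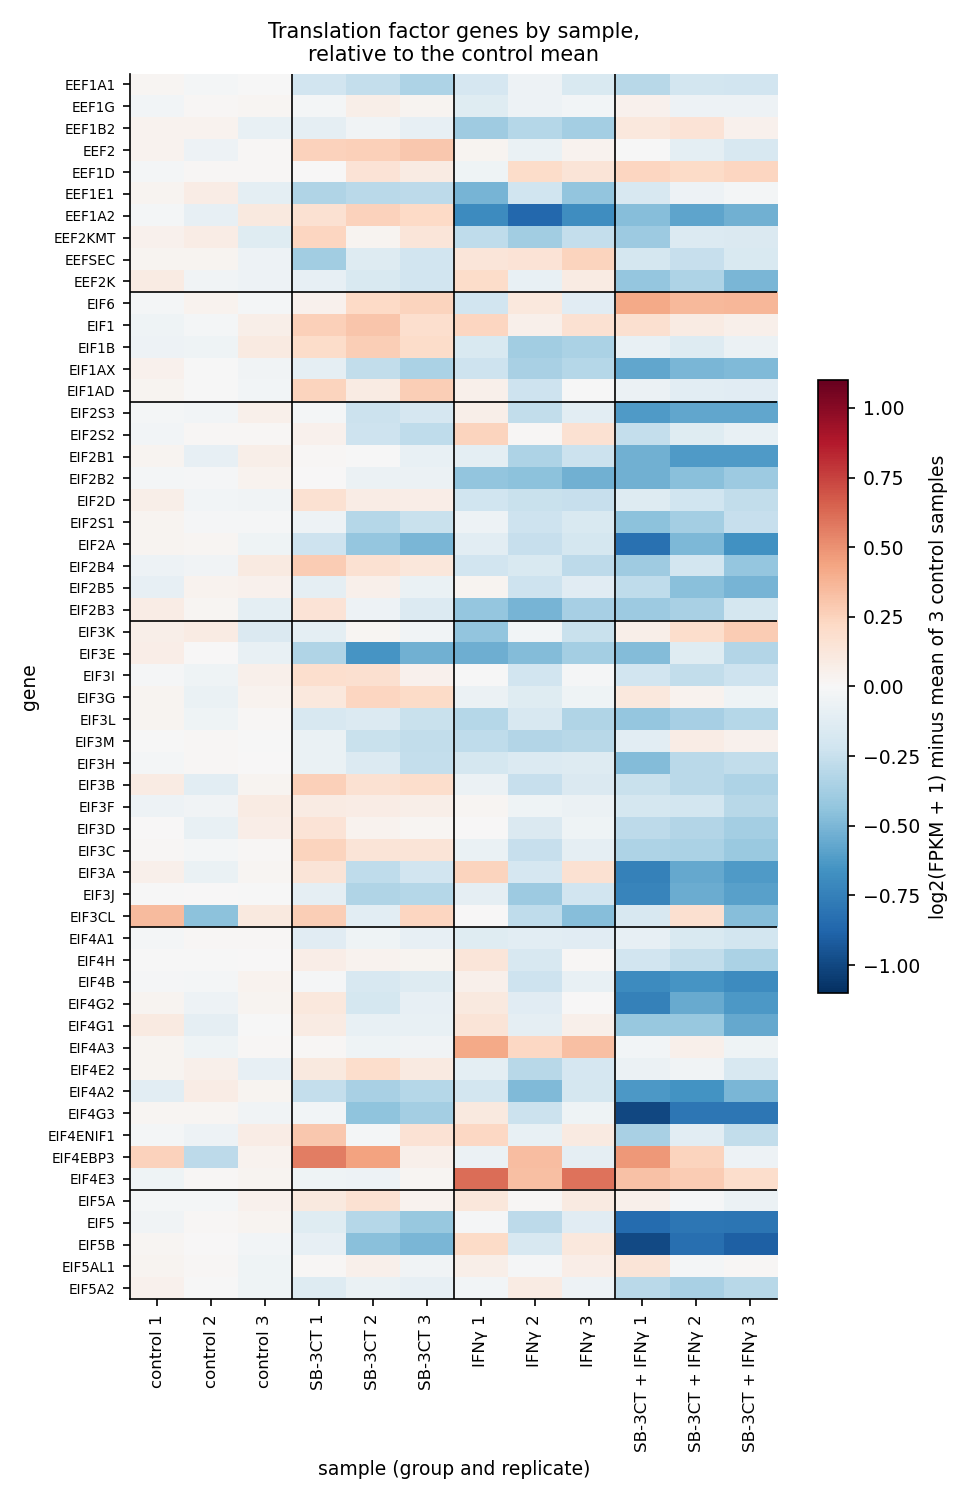
Log2(FPKM + 1) of the 56 genes (rows, by factor group and control level) in the 12 samples (columns), as the difference from the mean of the 3 control samples, red above and blue below. The columns of SB-3CT with IFNγ are darkest blue for EIF5B and EIF4G3, and red for EIF6.

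Changes in this comparison moved with transcript length. Over genes averaging 1 FPKM or more, the median log2 change was 0.08, -0.16, -0.30 and -0.41 in 4 equal bins of increasing length of the canonical transcript, and for the members in those bins 0.12, -0.24, -0.21 and -0.50. The genes that fell most have long canonical transcripts (EIF5B 5741 bases, EIF4G3 6397, EIF3A 6659). Those that rose have short ones (EEF1B2 808 bases, EIF3K 772, EIF6 1069), except EIF3M, whose canonical transcript has 5047. Which transcripts of these genes the cells expressed was not examined. On GRCh37, EIF5B lies at chr2:99953834-100017789 (plus strand), EIF4G3 at chr1:21132785-21503778 (minus), EIF3A at chr10:120793182-120840329 (minus), EEF1B2 at chr2:207024309-207027652 (plus), EIF3M at chr11:32605344-32627810 (plus) and EIF6 at chr20:33866710-33872788 (minus). After each sample's trend with length was removed, EIF5B, EIF4G3, EIF3A, EIF5, EIF4G2, EIF4B and EIF2S3 were still lower (EIF5B -0.56, adjusted p = 0.00107), EIF4G1 and EEF2K were not called, EIF3M, EEF1B2, EIF6 and EEF1A2 were still higher, and EIF3K (0.16), EEF1E1 (0.15) and EIF1B (0.03) were not called. On the length-corrected scale 11 members were higher and 13 lower, beside 28.4% and 14.7% of all genes. Those 7 falls were called on the deposited, median-ratio, quantile and length-corrected scales alike, and EEF1A2 was the rise of which that was true. The share of all genes called on these 4 scales alike was not counted. The EEF1A2 call held in 1 of the 6 fits that leave out a sample, whereas each of those 7 falls held in all 6. With SB-3CT alone the bin medians over genes averaging 1 FPKM or more were 0.036, -0.004, -0.047 and -0.108. With IFNγ alone they ran the opposite way, -0.097, -0.064, -0.032 and 0.008. With the length trend removed SB-3CT alone gave 5 members higher and 6 lower, beside 7.73% and 6.26% of all genes. IFNγ alone gave 2 and 20, beside 11% and 15.4%. EIF1B then passed in neither (adjusted p = 0.0741 and 0.0973).

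**Figure D4:**
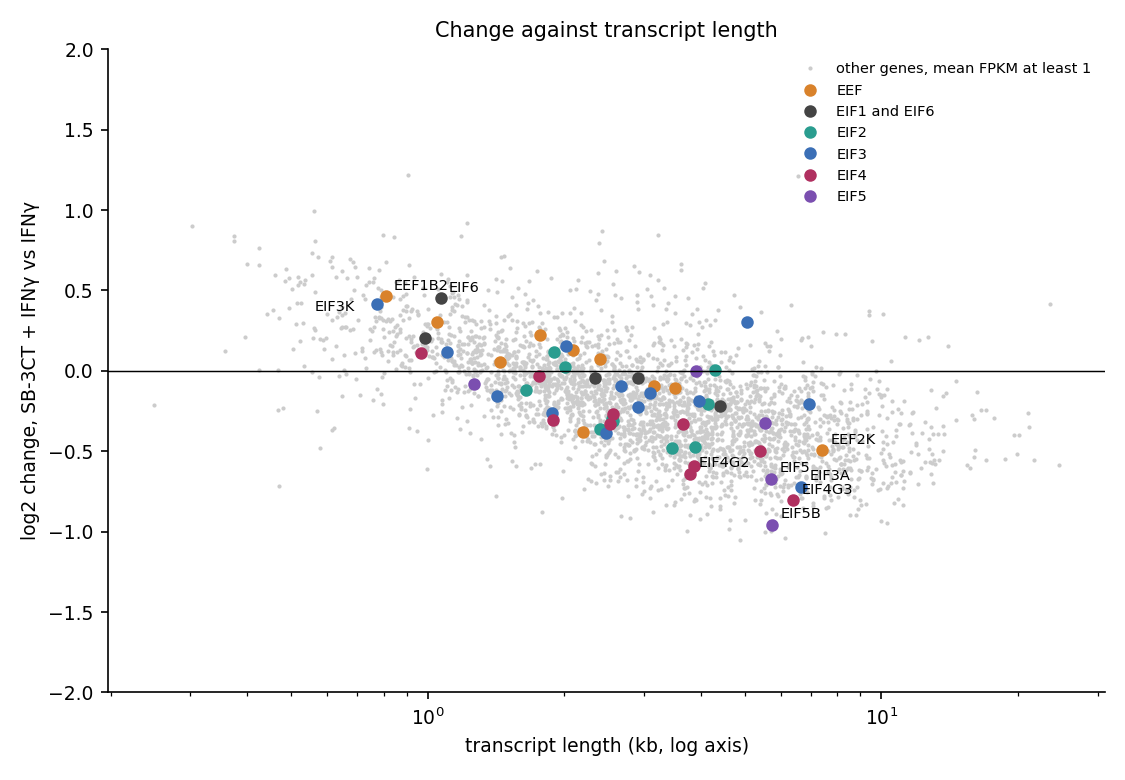
Log2 change with SB-3CT and IFNγ against IFNγ (y axis, deposited scale) against canonical transcript length (kb, log axis), for 3154 genes averaging 1 FPKM or more; members are coloured by factor group and 1 gene lies beyond the axis. EIF5B, EIF4G3 and EIF3A lie at the long end below -0.70, and EEF1B2, EIF3K and EIF6 at the short end above 0.40.

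The last comparison tests the difference itself, the SB-3CT change with IFNγ minus the SB-3CT change without it, over all 12 samples. It was higher for 5 members and lower for 20, beside 4.74% and 17.6% of all genes, and with median-ratio scaling for 6 and 3, beside 7.81% and 5.23%; the median over genes averaging 1 FPKM or more was -0.19 and -0.02. EIF3E, EEF1E1, EEF1B2, EIF3M and EIF3K were higher on both scales, by 0.66 for EIF3E (0.87 with median-ratio scaling). With quantile normalization EEF1B2 and EIF3K did not pass (adjusted p = 0.0942 and 0.485). Without IFNγ, SB-3CT lowered EIF3E, and with IFNγ its change was 0.15 without passing, or 0.41 (adjusted p = 0.0245) with median-ratio scaling. EIF4G2, EIF4B and EIF3C were lower on both scales, at -0.58, -0.48 and -0.40 (-0.37, -0.27 and -0.19). EIF5B and EIF3A were both at -0.61 on the deposited scale (adjusted p = 0.0222 and 0.0282) but did not pass with median-ratio scaling (adjusted p = 0.0584 and 0.0814). The difference also moved with transcript length. Over the 4 length bins its median was 0.05, -0.18, -0.27 and -0.31 for genes averaging 1 FPKM or more. For members it was 0.01, -0.14, -0.09 and -0.38. With the length trend removed 9 members were higher and 6 lower, beside 18.7% and 7.06% of all genes. EIF5B and EIF3A did not pass there either (adjusted p = 0.0626 and 0.0758), while EIF4G2, EIF4B and EIF3C did. EEF2, which rose with SB-3CT alone, was at -0.37 (adjusted p = 0.00962; -0.15 with median-ratio scaling, adjusted p = 0.289). Members lower numbered 12 without control replicate 1, 10 without control replicate 2, 11 without SB-3CT replicate 1, 10 without IFNγ replicate 1 or 3 and 11 without replicate 3 of SB-3CT with IFNγ.

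The 56 genes together held 10.1 ± 0.11% of summed FPKM in control cells, 9.78 ± 0.18% with SB-3CT, 9.42 ± 0.08% with IFNγ, and 9.05 ± 0.06% with both agents (SD, n = 3 each), a share that dividing a sample by a constant cannot alter. The 3 samples with both agents, at 9.06%, 9.11% and 8.99%, were below the 3 with IFNγ alone, at 9.39%, 9.36% and 9.52%; with 3 against 3 the smallest exact two-sided permutation p is 0.1. After each sample's length trend was removed the order of these 2 groups turned, with a mean share of 9.298% with IFNγ and 9.385% with both agents. The EEF genes made up 4.27% of the control total, most of it from EEF1A1 (1.77%) and EEF1G. The EIF4 share was 1.502 ± 0.06% with IFNγ and 1.29 ± 0.04% with both agents, and the EIF2 share 0.308 ± 0.02% and 0.244 ± 0.006%, in each case without overlap. The EIF1 and EIF6 share went the other way, from 0.892 ± 0.03% to 1.02 ± 0.02%, and was also higher with SB-3CT alone (1.01 ± 0.03%) than in control cells (0.900 ± 0.007%). The rise over IFNγ alone came mainly from EIF6, whose mean went from 613 to 836 FPKM. EIF1B rose from 48.3 to 55.6, while EIF1 (396 to 383.5), EIF1AX (31.4 to 26.8) and EIF1AD (12.1 to 11.7) were lower.

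**Figure D5:**
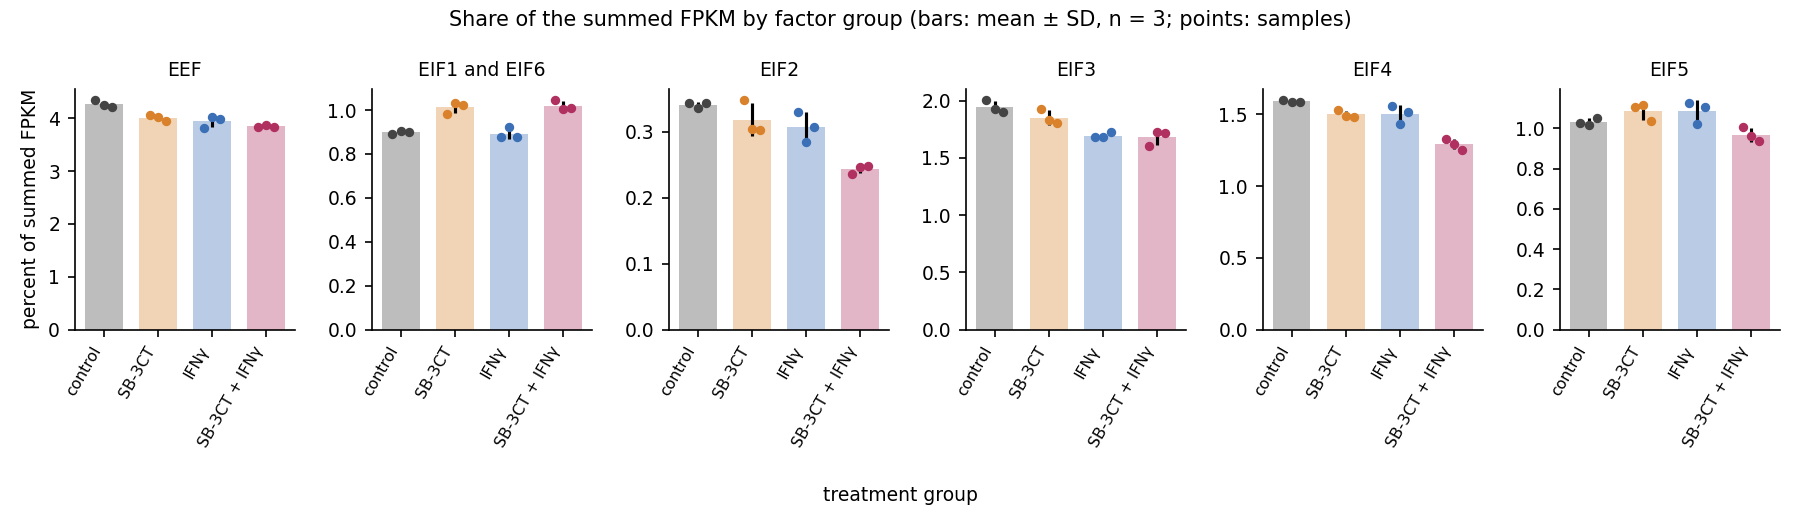
Percent of summed FPKM (y axis from 0) held by each factor group in the 4 treatment groups; bars are means with SD, n = 3, and points are samples. The EIF4 and EIF2 shares are lowest with SB-3CT and IFNγ, at 1.29% and 0.244%, and the EIF1 and EIF6 share is 1.02% there.

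A list of 33 other genes of translation holds release, recycling, hypusine, diphthamide and mRNA-binding factors. With SB-3CT alone 1 was higher and 4 lower (3.03% and 12.1%, beside 5.37% and 6.87% of all genes). The lower ones included the ribosome recycling ATPase ABCE1 (-0.43, adjusted p = 0.0323) and DENR, which acts after termination (-0.23, adjusted p = 0.0148). With IFNγ limma called 0 higher and 5 lower (2 and 11 at an unadjusted p under 0.05), beside 8.46% and 11% of all genes, led by DPH5 (-0.50), which helps make the diphthamide of eEF2. With SB-3CT and IFNγ against IFNγ, limma called 0 higher and 16 lower on the deposited scale (3 and 18 at an unadjusted p under 0.05), beside 6.41% and 31.5% of all genes, and 7 higher and 6 lower with median-ratio scaling, beside 16.5% and 15.5%. Genes lower on both scales included the helicase DDX3X (-0.93 and -0.68), the RNA-binding gene CAPRIN1 (-0.73 and -0.48), the helicase DHX29 (-0.68 and -0.47), ABCE1 (-0.58 and -0.34) and the release factor ETF1 (-0.52 and -0.27). In the difference of SB-3CT changes 2 were higher and 7 lower, beside 4.74% and 17.6% of all genes, but 5 higher and 1 lower with median-ratio scaling, beside 7.81% and 5.23%.

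The members with the pyrimidine run from the start base, printed above, can be set beside those without it. With SB-3CT and IFNγ against IFNγ, 3 of the 11 were higher and 5 lower (median -0.10, or 0.15 with median-ratio scaling), and of the 35 without it 3 were higher and 16 lower (median -0.22, or 0.03), beside 6.41% and 31.5% of all genes. With IFNγ against control, limma called 0 of the 11 higher, also at an unadjusted p under 0.05, and 4 lower (median -0.19, or -0.14 with median-ratio scaling), and of the 35, 2 were higher and 6 lower (median -0.07, or -0.03), beside 8.46% and 11% of all genes. These are counts of the members with an entry and were not tested.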

How the data were processed

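RNA-seq of 12 A375 samples (4 groups of 3) was used. The authors aligned 150-base paired reads to hg19 with HISAT2 (2.0.5 in the submitters' processing notes) and calculated FPKM with StringTie (1.3.3); what they deposited is log2(FPKM + 1), with a maximum of 12.16. The tests had been planned for FPKM, so taking logarithms was left out, and FPKM was recovered as 2 to the power of the value minus 1. Each column was assigned to its sample by name, leaving 0 unused.

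Tests used limma 3.58.1 under R 4.3.3 (lmFit, eBayes with a variance trend, unpaired, only the 6 samples of a comparison; all 12 for the difference of SB-3CT changes), with Benjamini-Hochberg adjustment over all 4918 genes and a threshold of 0.05. The code was tested on simulated data. Alternatives were median-ratio scaling, quantile normalization, subtraction of a length trend fitted per sample (lowess span 0.3, Ensembl canonical transcript, found for 99.13% of genes), a pseudocount of 0.1, a filter at an average of 1 FPKM, all 4 groups in a single fit, the replicate number as a block, eBayes without trend, the study's rule (fold change over 1.5 and unadjusted p under 0.05) and leaving out each sample.

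The members, lists and named genes were chosen with earlier results of these data known. Named were 22 set members (such as EEF1A1, EIF2S1 and EIF4G1). Per comparison, up to 8 members rising and 8 falling most were added, with an adjusted p under 0.05 and groups that do not overlap. For the difference up to 5 each way were added by adjusted p under 0.05, without the overlap rule. EIF3H, EIF2B4, EEFSEC and EIF3C in the difference, among others, were named after their values were seen. Samples with the same replicate number did not deviate together over genes (correlations from -0.069 to 0.172), so the numbers were not taken to pair the samples.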

Additional observations from a re-analysis of the deposited data

Results flagged for a closer look

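The test of whether the change with SB-3CT differed by the presence of IFNγ (limma, 12 samples) gave an adjusted p under 0.05 for 17 of the named members. On the deposited scale the log2 difference was higher for EIF3E (0.66), EEF1E1 (0.61), EEF1B2 (0.54), EIF3M (0.50) and EIF3K (0.46), and these 5 also passed with median-ratio scaling. It was lower for EIF5B (-0.61), EIF3A (-0.61), EIF4G2 (-0.58), EIF4G3 (-0.52), EIF4B (-0.48), EIF4G1 (-0.47), EIF5 (-0.38), EEF2 (-0.37), EIF3B (-0.34), EIF2B1 (-0.34), EIF2S3 (-0.34) and EIF1 (-0.30). Of these 12, EIF4G2 and EIF4B alone passed with median-ratio scaling, and they alone passed with the length trend removed. EEF1E1, EIF3E, EIF3M, EIF4B and EIF4G2 passed in every alternative tried, each sample left out included. Over genes averaging 1 FPKM or more the median difference was -0.19 before rescaling. With quantile normalization EEF1B2 (0.25, adjusted p = 0.0942) and EIF3K (0.15, adjusted p = 0.485) did not pass. Groups hold 3 samples, so no group was tested for outlying samples.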

How the results depend on the processing

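Counts are of members higher and lower. Shares of all genes were counted on the deposited, median-ratio, quantile and length-corrected scales only, and not in the other fits. SB-3CT against control gave 8 higher with median-ratio scaling, beside 7.36% of all genes. It gave 8 and 12 with a mean FPKM of at least 1. With all groups in a single fit 7 were higher, and by the fold rule 0 and 0. Leaving out each sample gave 0 to 5 and 0 to 18. IFNγ against control gave 4 higher with median-ratio scaling or quantile normalization, beside 12.1% and 10.3% of all genes. It gave 1 higher with the mean FPKM filter and 0 and 1 by the fold rule. Leaving out each sample gave 1 to 3 and 7 to 14. SB-3CT with IFNγ against IFNγ gave 18 and 9 with median-ratio scaling, beside 16.5% and 15.5% of all genes. With the length trend removed it gave 11 and 13, beside 28.4% and 14.7% of all genes. By the fold rule it gave 0 and 6, and leaving out each sample gave 3 to 6 and 14 to 27. The difference of SB-3CT changes gave 3 lower with median-ratio scaling, beside 5.23% of all genes. With quantile normalization it gave 3 and 10, beside 6% and 7.02%. With the length trend removed it gave 9 and 6, beside 18.7% and 7.06%. Leaving out each sample gave 4 to 6 and 10 to 23.

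With the replicate number as a block, SB-3CT against control gave 1 higher and 3 lower, IFNγ against control 2 and 9, SB-3CT with IFNγ against IFNγ 6 and 22, and the difference 5 and 18. Samples share only a number: correlations of same-numbered deviations were 0.041, -0.013 and 0.074, then 0.09, 0.172 and -0.028, then -0.069, -0.064 and 0.044 for the first 3 comparisons.

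The share of summed FPKM was 10.9%, 10.2%, 9.613% and 8.74% with quantile normalization in control, SB-3CT, IFNγ and SB-3CT with IFNγ, and 9.298% and 9.39% in the last 2 groups with the length trend removed. With that removal EEF2 turned to 0.16 (adjusted p = 0.0498) with SB-3CT and IFNγ against IFNγ. In the same comparison quantile normalization gave EEF2 -0.39 (adjusted p = 0.0208), the opposite direction. EIF3F was there at -0.20 on the deposited scale (adjusted p = 0.021). It was at 0.22 with the length trend removed (adjusted p = 0.0161). With median-ratio scaling EIF1 turned to 0.21 (adjusted p = 0.0395) in that comparison. The difference for EIF2S1 turned to 0.27 (adjusted p = 0.0203) with the length trend removed. Of the named single-gene results 47 kept direction and side of the threshold in every alternative, 64 changed side in at least 1, and 3 reversed; sign changes of values that passed in neither setting were not counted as reversed. The cause was not tested. Depth limits the genes with a control mean below 1 FPKM, EIF3CL, EIF4EBP3 and EIF4E3.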
